A study of Mus musculus with 8 samples.

Results

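The DNA repair genes described here are the protein-coding mouse genes whose symbols start with Rad and a digit, Fanc, Xrcc or Ercc, or are Brca1 or Brca2, leaving out the cohesin genes Rad21 and Rad21l. The rule found 46 genes among the 21900 protein-coding genes of the RefSeq annotation of GRCm38 (mm10). They lie on 18 chromosomes. The rule uses names only and no measured value, though the genes were chosen with earlier results of these data known.

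The series mapped ZGLP1, a zinc finger protein that its title links to the oogenic fate, by chromatin immunoprecipitation and sequencing (ChIP-seq) through a V5 tag on the protein. The 8 libraries came from cells of a C57BL/6 x DBA2 background that overexpressed V5-tagged Zglp1. PGCLCs, germ cell precursors induced in a dish from embryonic stem cells (ESCs), were taken on culture day 7 or 8 after doxycycline (Dox) from day 3, with or without retinoic acid (RA), and were sorted for the SC reporter and mCherry (the labels give the SC gate as positive in 1 field and write it with a minus sign in another). ESCs received Dox and RA for 24 hours and were sorted for mCherry. The 5 ChIP libraries used equal numbers of cells, and 3 input libraries accompanied them (PGCLCs on day 8 with Dox, PGCLCs on day 8 with Dox and RA, and ESCs). All groups shared Dox and the introduced Zglp1, every group had 1 library, and all values concern a forced, tagged protein rather than ZGLP1 at its natural level.

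What was analysed is 1 list of 32927 peak summits, the bases where the ChIP signal of a peak is highest, with positions alone. No summit can be assigned to a library, so Dox could not be set against Dox with RA, nor day 7 against day 8, nor PGCLCs against ESCs. There is no replicate error and the read depth is unknown. Where a gene has no summit, binding below the authors' threshold cannot be told apart from no binding. The shares below are therefore descriptions, each set beside the same share over all protein-coding genes, with no test.

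Most of these genes protect cells from broken and damaged DNA, while a few carry such a symbol through a neighbour or a sequence likeness. Homologous recombination repairs breaks by copying an intact sister or homologous DNA molecule, with the help of BRCA1, BRCA2 and further mediator proteins. The Fanconi anaemia pathway removes links between the DNA strands, nucleotide excision repair removes bulky lesions such as those made by ultraviolet light, and end joining reseals broken ends. Primordial germ cells depend on several Fanconi genes for their numbers, and the recombination proteins act again in oocytes when meiosis makes programmed breaks.

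The start site is where the results turn, so promoters are shown first for the gene of each functional group with the closest summit to a listed start. Brca2 was added after its values were seen, as was Fancg, the only one of the 35 genes with a listed start that had no summit within 1 kb of it. Sequences are from RefSeq for GRCm38.p6 and run 5′ to 3′ on the strand of the gene, from 250 bases before the start to the 30 bases that begin with it. The regions are chr6:119902448-119902727 (plus strand) for Rad52, chr8:123318547-123318826 (minus strand) for Fanca, chr7:19344821-19345100 (plus strand) for Ercc1, chr1:72307171-72307450 (plus strand) for Xrcc5, chr6:112696619-112696898 (minus strand) for Rad18, chr6:113600686-113600965 (minus strand) for Fancd2os, chr5:150522371-150522650 (plus strand) for Brca2 and chr4:43010272-43010551 (minus strand) for Fancg. Capitals mark letters of the searched motifs, which are described with the promoter composition. The closest summit lay 22 bases downstream of the start in Rad52, 78 in Ercc1, 102 in Xrcc5, 12 in Rad18, 3 in Fancd2os and 30 in Brca2, 8 bases upstream of it in Fanca, and 4315 bases downstream of it in Fancg.
Rad52: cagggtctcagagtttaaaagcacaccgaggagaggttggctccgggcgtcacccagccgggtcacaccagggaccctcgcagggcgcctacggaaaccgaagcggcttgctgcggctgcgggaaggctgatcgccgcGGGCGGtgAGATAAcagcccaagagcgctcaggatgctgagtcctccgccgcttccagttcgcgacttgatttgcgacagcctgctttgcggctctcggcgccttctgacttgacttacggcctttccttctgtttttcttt
Fanca: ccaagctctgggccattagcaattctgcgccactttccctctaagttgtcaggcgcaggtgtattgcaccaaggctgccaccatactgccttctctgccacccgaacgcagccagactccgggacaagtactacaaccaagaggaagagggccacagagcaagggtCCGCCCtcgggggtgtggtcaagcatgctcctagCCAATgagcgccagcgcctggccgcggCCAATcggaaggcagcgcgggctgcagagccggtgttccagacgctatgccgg
Ercc1: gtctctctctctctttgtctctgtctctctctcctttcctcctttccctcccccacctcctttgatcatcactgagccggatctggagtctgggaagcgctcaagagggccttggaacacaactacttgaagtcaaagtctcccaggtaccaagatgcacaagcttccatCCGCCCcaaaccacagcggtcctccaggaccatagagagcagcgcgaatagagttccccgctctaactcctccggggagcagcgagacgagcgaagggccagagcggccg
Xrcc5: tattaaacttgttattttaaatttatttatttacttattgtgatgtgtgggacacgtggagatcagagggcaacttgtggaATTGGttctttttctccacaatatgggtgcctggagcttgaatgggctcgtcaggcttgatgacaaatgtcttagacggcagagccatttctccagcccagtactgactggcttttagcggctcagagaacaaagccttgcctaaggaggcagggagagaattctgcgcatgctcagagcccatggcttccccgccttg
Rad18: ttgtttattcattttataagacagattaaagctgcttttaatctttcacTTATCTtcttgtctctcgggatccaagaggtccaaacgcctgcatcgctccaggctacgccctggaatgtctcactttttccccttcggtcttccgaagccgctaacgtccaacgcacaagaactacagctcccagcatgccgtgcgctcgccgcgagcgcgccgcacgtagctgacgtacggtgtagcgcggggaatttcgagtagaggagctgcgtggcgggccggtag
Fancd2os: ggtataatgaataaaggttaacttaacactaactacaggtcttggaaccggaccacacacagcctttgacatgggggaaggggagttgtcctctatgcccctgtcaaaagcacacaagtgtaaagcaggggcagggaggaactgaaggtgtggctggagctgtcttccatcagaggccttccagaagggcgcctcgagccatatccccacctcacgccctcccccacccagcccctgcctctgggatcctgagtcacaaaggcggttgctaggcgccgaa
Brca2: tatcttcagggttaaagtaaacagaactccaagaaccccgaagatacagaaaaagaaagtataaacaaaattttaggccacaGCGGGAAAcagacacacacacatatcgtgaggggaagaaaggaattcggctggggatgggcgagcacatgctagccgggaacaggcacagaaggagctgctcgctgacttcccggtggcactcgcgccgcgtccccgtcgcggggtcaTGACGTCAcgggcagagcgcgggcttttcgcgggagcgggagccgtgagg
Fancg: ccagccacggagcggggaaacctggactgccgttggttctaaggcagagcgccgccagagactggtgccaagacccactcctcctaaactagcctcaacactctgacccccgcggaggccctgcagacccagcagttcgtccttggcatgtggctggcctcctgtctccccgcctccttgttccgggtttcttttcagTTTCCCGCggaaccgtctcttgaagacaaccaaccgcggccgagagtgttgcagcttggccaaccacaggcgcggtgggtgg

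Nearly all repair genes had a ZGLP1 summit at an end. Of the 46 genes, 44 (95.7%) had a summit within 1 kb of their lower or higher coordinate end, where 52.9% of all protein-coding genes had one. Within 10 kb all 46 had a summit, against 66.6% of all protein-coding genes. The median distance from a gene end to the closest summit was 153 bases (quartiles 67.25 and 301), against 657.5 bases over all protein-coding genes. Within 100 bases the share was 34.8% against 20.1%, and within 500 bases it was 84.8% against 47.6%.

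The exceptions at 1 kb both had a summit at a start site inside the annotated gene. Ercc1, whose product is the partner of the XPF nuclease, had its closest summit 1082 bases inside its lower end, which is 78 bases downstream of its listed start. Ercc6l2, a gene for a helicase-like protein, had it 4434 bases inside, which is 173 bases downstream of its listed start. Just within 1 kb stood Rad52, a gene for a strand-annealing protein, at 998 bases, and Ercc5, a nuclease gene, at 988 bases, so that these counts rest partly on how far the annotated gene reaches beyond the start. Their summits lay 22 and 192 bases from a listed start.

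**Figure D1:**
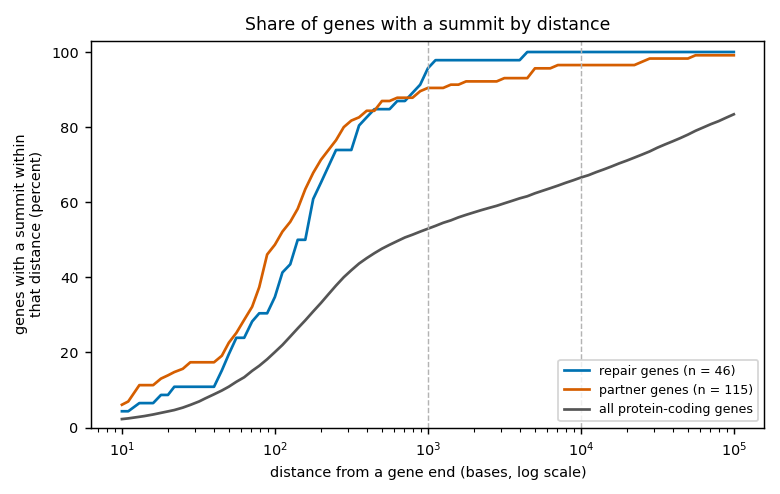
Percent of genes with a summit within a given distance of either gene end (x axis in bases, log scale). Lines are drawn for the 46 repair genes, 115 partner genes (other DNA repair and checkpoint genes) and all protein-coding genes. Dashed lines mark 1 kb and 10 kb. The repair gene line reaches 95.7% at 1 kb and 100.0% at 5 kb, and the line of all genes stands at 52.9% and 62.4%.

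The summits sat at the start and seldom at the far end. A start site and strand were listed for 35 of the 46 genes, and 34 of these (97.1%) had a summit within 1 kb of a start, against 55.7% of all protein-coding genes with a listed start. Within 250 bases 32 (91.4%) had one, against 44.5%. The median distance from start to summit was 102 bases, against 349 over all such genes. In the 34 genes the closest summit lay downstream of the start in 22 and upstream in 12, with a median of 45.5 bases downstream (quartiles -41.75 and 108.75). Over all genes with a summit within 1 kb of a start the median was 18 bases downstream, and 54.8% lay downstream. Among 90 partner genes with such a summit, 41.1% had it downstream, and the median offset was -18.5 bases, on the upstream side. At the far end 5 of 35 repair genes (14.3%) had a summit within 1 kb, against 6.2% of all genes. These 5 were Fancc, Fancf, Fancg, Rad17 and Xrcc6. Fancf is 1691 bases long, and its far end summit was also 697 bases from its start and 221 from Gas2. The far end summit lay closer to another protein-coding gene in Rad17 (Marveld2) and Xrcc6 (Snu13), and the closest one in Fancc lay closer to microRNA genes. Each of the 11 genes with no listed start, such as Fancd2, Rad50 and Xrcc2, had a summit within 1 kb of an end.

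**Figure D2:**
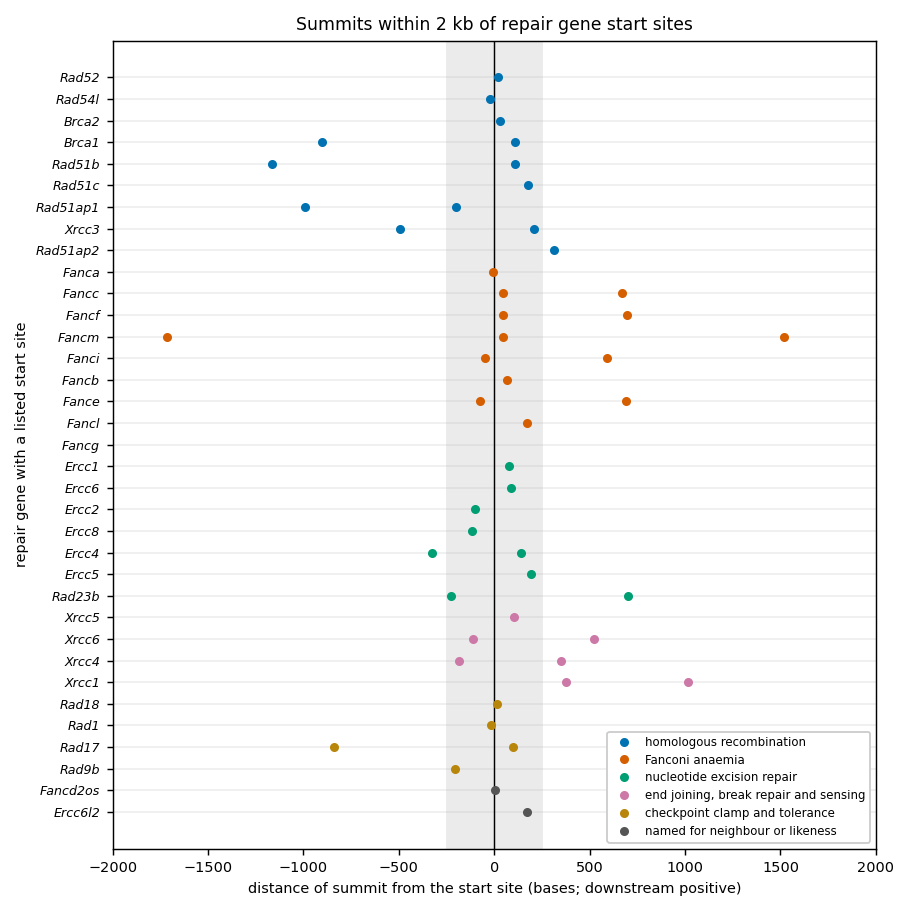
Summits within 2 kb of the listed start of each of 35 repair genes (x axis, bases from the start, downstream positive; 1 point per summit, coloured by functional group; the shaded band is 250 bases on either side). For 32 of the genes a point falls in the band, and Fancg has none in the range drawn.

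Homologous recombination genes all had a summit at an end, 13 of 13 within 1 kb, with a median of 223 bases and a range from 13 to 998. Rad54l, a motor protein gene of recombination (chromosome 4, 116094261 to 116123700), had a single summit within 10 kb, at 116123713, 13 bases outside its higher end. The mediator gene Brca2 had 1 summit, 354 bases inside its lower end and 30 bases downstream of its listed start. Brca1, whose product directs break ends towards recombination, had 2, at 108 and 902 bases from its higher end. The summit at 902 bases lay outside Brca1 and closer to Nbr1 (750 bases).

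The genes of the recombination mediator complexes each had a summit within 1 kb. The distances were 178 bases for Rad51b, 623 for Rad51c, 250 for Rad51d, 177 for Xrcc2 and 223 for Xrcc3. For Rad51c the listed start nearest to the summit was 175 bases away. Rad51ap1, for a protein that stimulates strand pairing, had summits at 166 and 956 bases, the latter closer to D6Wsu163e (611 bases). Rad51ap2, a relative known from meiotic cells, had 1 at 346 bases, 314 bases downstream of its start. Rad54b, a relative of the motor gene Rad54l, had its closest summit at 438 bases. Rad51b, which spans 79297282 to 79848260 on chromosome 12, also held 4 summits over 10 kb from its ends. These 4 lay between 50537 and 253406 bases from the closer end.

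All 10 Fanconi anaemia genes had a summit within 1 kb of an end, at a median of 123 bases and from 22 to 856. Fanci, for one partner of the protein pair that the pathway marks with ubiquitin (chromosome 7, 79392312 to 79450266), had summits at 79392290, 22 bases outside its lower end, and at 79392930 and 79398654 inside. Fancd2, for the other partner, had its closest summit 50 bases outside its lower end, at 113531590 on chromosome 6. This summit lay 48 bases from Emc3. Fancf, an adaptor of the core complex (chromosome 7, 51860577 to 51862267), had summits at 51862220 and 51861570, 47 and 697 bases inside its higher end. The summit at 51861570 lay closer to Gas2 (221 bases). Among the other core complex genes the closest summit stood at 67 bases in Fanca, 74 in Fance, 172 in Fancl, the ubiquitin ligase gene, and 179 in Fancb. That of Fancb lay closer to Mospd2 (154 bases). Fancm, which encodes a DNA translocase, had 4 summits within 10 kb, 1 of them 47 bases from its listed start. Its summit closest to an end lay 224 bases outside the lower end and closer to Fkbp3 (52 bases).

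Fancg and Fancc departed from this pattern at their annotated ends. Fancg (chromosome 4, 43002337 to 43010567, minus strand) had summits at 43003193, 856 bases inside its far end, at 43005986 farther in, and at 42999794, which lies 713 bases from Vcp. Its start had none within 1 kb. Fancc (chromosome 13, 63301334 to 63497292, minus strand) had summits at 63301161 and 63301732, 173 and 398 bases from its far end. The first of these lies 47 bases from Mir24-1, 377 from Mir27b and 604 from Mir23b, so the summits at that end adjoin a microRNA cluster. The listed start of Fancc, at 63431745, had a further summit 44 bases downstream of it, at 63431701.

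Of 9 nucleotide excision repair genes, 8 had a summit within 1 kb of an end, Ercc1 being the exception, and the median was 102 bases. Ercc4, the XPF nuclease gene (chromosome 16, 13109366 to 13152009), had 6 within 10 kb. The closest was at 13109409, 43 bases inside its lower end, with 4 more in the gene (13109876, 13117295, 13118260 and 13148266) and 1 beyond it (13160338). The genes for the TFIIH helicases, Ercc2 and Ercc3, had their closest summits at 102 and 68 bases, both outside the gene. Those of the transcription-coupled repair genes Ercc6 and Ercc8 stood at 318 and 91 bases. The summit of Ercc8 lay closer to Ndufaf2 (32 bases). Rad23b, for a damage-recognition cofactor that binds XPC, had its closest summit at 229 bases, and the nuclease gene Ercc5 at 988.

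The 5 end joining and break repair genes each had a summit within 1 kb of an end, at a median of 184 bases and from 106 to 747. Xrcc5, for the Ku80 subunit that caps broken ends (chromosome 1, 72307417 to 72394953), had a single summit within 10 kb, at 72307523, 106 bases inside its lower end. Rad50, for a subunit of the complex that senses breaks (chromosome 11, 53649519 to 53707319), had a single one at 53707184, 135 bases inside its higher end. Xrcc1, the scaffold gene of single-strand break repair, had its closest summit at 375 bases, and Xrcc4, the ligase partner gene, at 184 bases. That of Xrcc4 lay closer to Tmem167 (125 bases). Xrcc6, for the Ku70 subunit, had its closest end summit at 747 bases, outside its far end and 513 bases from Snu13. Its listed start lies inside the annotated gene and had a summit 111 bases upstream, at an annotated end of Desi1 (0 bases away). A listed start of Desi1 on the other strand lay 149 bases from that of Xrcc6.

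For the 5 checkpoint and damage tolerance genes the closest summits were all within 140 bases of an end, at a median of 98 bases and the nearest at 17. Rad1, of the 9-1-1 clamp that marks damaged sites (chromosome 15, 10486018 to 10499063), had a single summit at 10486001, 17 bases outside its lower end. Rad18, the ubiquitin ligase gene that starts damage tolerance (chromosome 6, 112619851 to 112696691), had a single one at 112696636, 55 bases inside its higher end. This summit lay closer to the long noncoding RNA gene Gm35824 (32 bases). The clamp subunit genes Rad9a and Rad9b stood at 121 and 140 bases, and the summit of Rad9b lay closer to Vps29 (82 bases). Rad17, of the clamp loader, had 3 summits within 1 kb, at 98 and 841 bases from its higher end and 493 bases from its lower end. The summit at 841 bases lay closer to Ak6 and Taf9 (559 bases), and that at 493 bases closer to Marveld2 (300 bases).

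A further 4 genes carry such a symbol through a neighbour or a sequence likeness, and 3 of them had a summit within 1 kb (median 85.5 bases). Fancd2os, named for lying opposite Fancd2 (chromosome 6, 113596761 to 113600715), had summits at 113600712, 3 bases inside its higher end, and at 113604807, 35 bases from Brk1. Fancd2 shares both summits in its 10 kb window. Rad54l2, a relative of Rad54l (chromosome 9, 106688080 to 106789213), had summits at 106789169, 44 bases inside its higher end, and at 106688255, 106687350, 106685820 and 106684388 around its lower end. Those at 106685820 and 106684388 lay closer to Tex264, at 132 and 1564 bases from it. Ercc6l, for a mitotic DNA translocase, had its closest summit at 127 bases.

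Of the 46 genes, Fancb and Ercc6l are X-linked, and both had a summit within 1 kb (179 and 127 bases). Over all 966 X-linked protein-coding genes the share was 22.7%. With 2 genes nothing can be said of X-linked repair genes as a group.

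**Figure D3:**
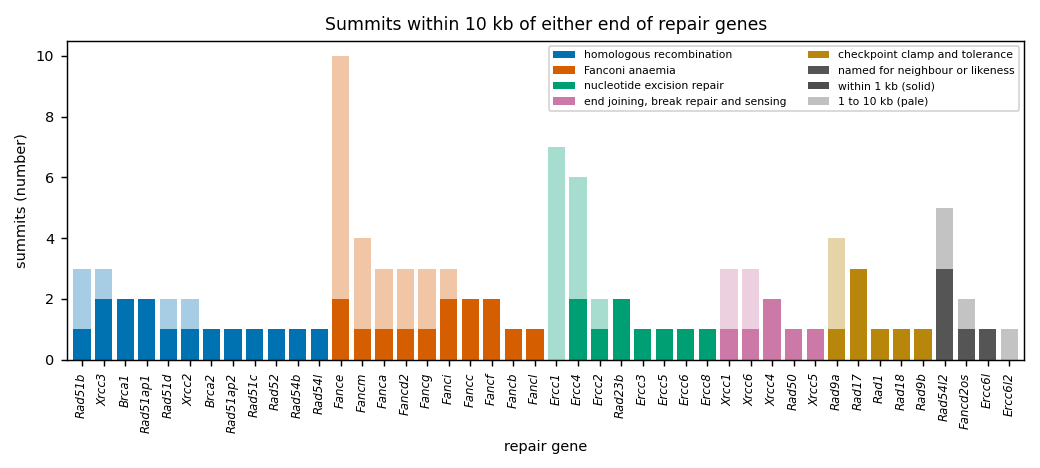
Number of summits within 10 kb of either end of each of 44 repair genes (bars, coloured by functional group; solid part within 1 kb, pale part from 1 to 10 kb). Fance stands highest with 10, and 19 genes have a single summit.

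The number of summits per gene varied more than their presence. Repair genes had a median of 2 summits within 10 kb and a mean of 2.37, against 1 and 1.67 over all protein-coding genes. Of the 46, 19 had 1 summit, 11 had 2, 9 had 3 and 7 (15.2%) had 4 or more, a number that 14.3% of all protein-coding genes reached. Within 1 kb 12 genes (26.1%) had 2 or more, against 17.8%. The values over all genes include 7320 of 21900 genes with no summit within 10 kb and 10304 with none within 1 kb. Among repair genes these numbers were 0 and 2. Of the 44 repair genes with a summit within 1 kb, 12 had 2 or more. Over all genes 3895 of 11596 did, a higher share. Of genes with a summit within 10 kb, 7 of 46 repair genes and 3123 of 14580 over all had 4 or more, again a higher share over all. Counting each summit once, 107 summits lay within 10 kb of a repair gene, 58 of them within 1 kb.

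In the 2 genes with most summits, several lay closer to a neighbour. Fance (chromosome 17, 28313530 to 28326574) had 10, at 28313456 and 28314218 by its start, at 28324111 and 28324619 inside near the far end, and 6 beyond it. Of these 6, 4 lay closest to Rpl10a, a ribosomal protein gene, and 2 to Tead3, a transcription factor gene. Ercc1 had 7, of which 5 lay beyond its higher end, 1 closest to Cd3eap and 4 to Ppp1r13l. Ercc4, with 6, had none of its summits closer to another protein-coding gene. Counting only summits over 1 kb from every protein-coding gene end, 37.0% of repair genes had one within 10 kb and 35.6% of all protein-coding genes did. This count still holds summits at starts that lie inside an annotated gene, such as those of Ercc1, Ercc6l2 and Fancm. A further 17 summits, in 9 genes, lay inside a repair gene over 10 kb from its ends, among them 4 in Rad51b, 3 in Fancm and 3 in Fancc. Of these 17, 2 in Fancc (44 and 668 bases downstream) and 2 in Xrcc6 (111 bases upstream and 524 downstream) lay within 1 kb of the listed start of their gene.

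Many repair gene starts face another gene. A listed start of another protein-coding gene on the other strand lay within 1 kb in 13 of 35 repair genes (37.1%), against 9.3% of all protein-coding genes with a listed start. Among all genes with such an opposed start 95.3% had a summit within 1 kb of their own start, and among the 13 all did. The starts lay 152 bases apart for Brca1 and Nbr1, 81 for Rad1 and Brix1, 59 for Xrcc4 and Tmem167, 113 for Ercc8 and Ndufaf2, 123 for Rad9b and Vps29, and 217 for Fancb and Mospd2. Of the 44 genes with a summit within 1 kb of an end, 17 (38.6%) had one that was also within 1 kb of another protein-coding gene, against 28.0% of all such genes. For these a summit cannot be assigned to 1 gene of the pair. A further count kept only summits closer to a gene's own end than to that of any other protein-coding gene. It left 82.6% of repair genes with a summit within 1 kb, against 49.0% of all protein-coding genes.

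The promoters were rich in CpG, the dinucleotide whose density marks CpG island promoters. In the 300 bases from 250 before to 50 after the start (the first listed start of each gene), the median ratio of observed to expected CpG was 0.901 in 35 repair genes, with a range from 0.182 to 1.28, against 0.576 over 17492 protein-coding promoters. The median GC content was 58.7% against 56.3%. All promoters with a summit within 1 kb of a start had a median CpG ratio of 0.787, and those without one 0.205. Of all promoters with a ratio of at least 0.6, 90.1% had a summit within 1 kb of a start, and 27 of the 28 repair genes in that class did, Fancg (ratio 0.63) being the exception. Between 0.4 and 0.6, 60.4% of all promoters and 4 of 4 repair genes had a summit. Below 0.4, where 11.7% of 6845 promoters had a summit, Fancl (0.18), Fancd2os (0.34) and Xrcc1 (0.38) were the only repair genes, and each had one. Whether CpG content accounts for the repair gene share was not tested.

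**Figure D4:**
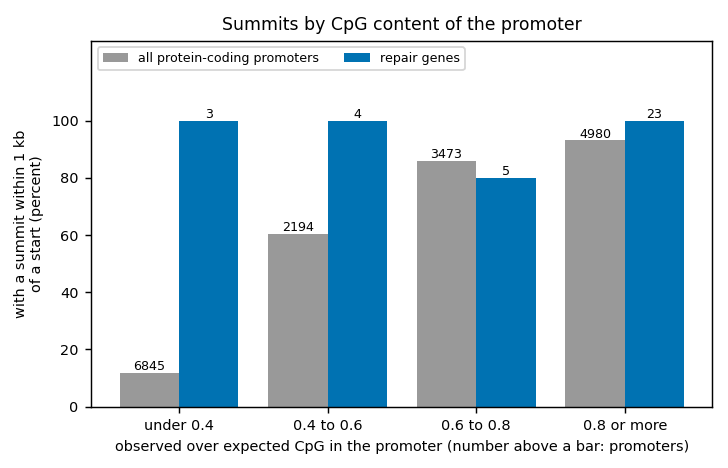
Percent of promoters with a summit within 1 kb of a start (y axis) in 4 classes of observed over expected CpG (x axis), for all protein-coding promoters (grey) and repair genes (blue), with the number of promoters above each bar. The grey bars rise from 11.7% to 93.1%, while the blue bars rest on 3, 4, 5 and 23 promoters.

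Motif letters were searched on both strands of the same 300 bases. ZGLP1 has GATA-like zinc fingers, and letters of the GATA type (AGATAA or its variant AGATAG, with TGATAA and its variant TGATAG) occurred in 5 of 35 repair gene promoters (14.3%), against 26.7% of all promoters and 16.5% of promoters with a summit within 1 kb. The 5 were Ercc6, Fancc, Rad18, Rad52 and Xrcc4. In Rad52 the letters AGATAA stand at positions -104 to -99 from the start, and in Rad18 TTATCT, which is AGATAA on the other strand, at -201 to -196 from the start used above. CCAAT, the letters of NFY, occurred in 20 (57.1%, all promoters 39.0%, promoters with a summit 39.4%), and GGGCGG, those of SP factors, in 20 (57.1%, all promoters 46.3%, promoters with a summit 68.4%).

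Less common were the ETS letters CCGGAAG in 5 (14.3%, all promoters 11.9%, promoters with a summit 19.0%), the E2F letters TTTCCCGC or TTTGGCGC in 3 (8.57%, all promoters 2.09%, promoters with a summit 3.3%), the NRF1 letters CGCATGCG in 2 (5.71%, all promoters 2.54%, promoters with a summit 4.29%) and the CRE letters TGACGTCA in 2 (5.71%, all promoters 2.34%, promoters with a summit 3.62%). The E2F letters were in Brca2, Fancg and Xrcc6, and those of CRE in Brca2 and Rad51c. In Brca2 the CRE letters stand at -20 to -13. The window of Fancd2os, whose summit was the closest to a gene end among the 46, held none of the searched letters, which says only that these letters are not in it. Matches are descriptions of letters, not of bound sites.

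Other DNA repair and checkpoint genes, 115 in number and with base excision and mismatch repair genes among them, had summits about as often. Of them 104 (90.4%) had one within 1 kb of an end and 111 (96.5%) within 10 kb, with a median of 110 bases. At a listed start 90 of 93 (96.8%) had one within 1 kb. The closest summits were those of the base excision glycosylase gene Mpg (1 base), the clamp loader gene Rfc4 (1 base) and the checkpoint kinase gene Chek2 (3 bases). All 7 mismatch repair genes had one within 1 kb. The farthest were those of Cetn2 (310363 bases), an X-linked gene for a centrin that accompanies XPC, of Apex2 (51364 bases), an X-linked endonuclease gene, and of Hus1b (26382 bases), a paralogue of the clamp gene Hus1, itself at 92 bases. With Rbbp8 (24580 bases), which encodes the end resection factor CtIP and was named after its value was seen, these were the 4 partner genes with no summit within 10 kb.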

How the data were processed

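The authors deposited summit positions in bases, in a single list for the whole series. The submitters' processing notes name build mm10 and the tools MACS2 2.1.1.20160309, HOMER 4.9.1, Bowtie 1.1.2, bedtools, Trim Galore 0.4.1, SAMtools 1.3, cutadapt 1.9.1 and Picard 2.1.0. Their roles, settings and the libraries behind the list are not given in the sources used here. With start equal to end in all 32927 lines, distances may be off by 1 base.

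Distances run from each summit to the ends of genes in the RefSeq table for GRCm38.p6, which gives no exons. Starts, strands and sequences come from the RefSeq promoter table, which matched 35 of 46 genes; with several starts the closest to a summit was used, for all genes alike. Partner genes were matched by symbol (115 genes; Claspin, H2afx and Mre11 did not match, but their other spellings Clspn, H2ax and Mre11a did). The 46 genes, role lists, partner list and motifs were chosen with earlier results of these data known. Every member may be named; positions are given for the 2 closest of each role list (those of other genes were chosen after their values were seen, and 2 genes counted in the totals are not reported here by name), and for partners the 3 closest and 3 farthest. Distances matched a direct calculation in 300 of 300 genes. No test was made, since members are not replicates. Exact 95% binomial intervals served only to judge alternatives. Work was done in Python 3.11.15 using pandas 2.3.3 and numpy 2.4.6, figures with matplotlib 3.10.9 and intervals with SciPy 1.17.1.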

Additional observations from a re-analysis of the deposited data

How the results depend on the processing

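Of 49 alternative values 27 stayed within the exact 95% interval of the reported value (for medians, that of the median) and 22 moved, mostly by construction, since a narrower window or 1 end alone holds fewer summits. With the lower end alone, the repair gene share was 58.7% at 1 kb and 80.4% at 10 kb and the median 674 bases (all protein-coding genes 28.7%, 50.7% and 9460 bases). With the higher end alone these were 43.5%, 65.2% and 3720 bases (all genes 28.7%, 50.9% and 9370 bases). For partner genes the lower end gave 47.0% and 73.0%, and the higher end 48.7% and 69.6%. Counting only summits nearest to the gene itself, among protein-coding genes, gave 82.6% and 91.3% for repair genes. For partners this gave 74.8% and 80.9%, and for all genes 49.0% and 58.8%. The 1 kb share became 34.8% within 100 bases, 84.8% within 500 and 100.0% within 5 kb (all genes 20.1%, 47.6% and 62.4%). At starts, it was 45.7% within 100 bases, and 14.3% at the far end (all genes 25.9% and 6.2%). With summits over 1 kb from every gene end the 10 kb share fell to 37.0% (all genes 35.6%). On 1 strand, the SP letters were found in 31.4% and the NFY letters in 34.3% (all promoters 30.4% and 22.5%). Joining summits within 1 kb, autosomal genes alone, leaving out the 4 genes named for a neighbour or likeness, and adding Rad21 and Rad21l left each value within its interval. The use of the first listed start alone (97.1%) and the CpG classes were chosen after seeing the data. Since depth is unknown, a missing summit cannot be read as missing binding, and no alternative on peak strength or libraries could be run on positions alone. No paired analysis was possible because 1 list stands for all libraries.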
